A study of Mus musculus with 27 samples.

Results

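The 10 genes described here encode members of the Notch pathway in the mouse esophagus. They comprise the 4 receptors Notch1, Notch2, Notch3 and Notch4, the 3 ligands Jag1, Jag2 and Dll1, and the 3 target genes Hes1, Hey1 and Heyl. They were chosen by gene symbol from the probe annotation of the arrays and not by a rule on measured values, although earlier results of these data were known. They are 10 of the 28146 gene names on the array, represented by 15 probes. RNA of 27 esophagus samples in 9 groups of 3 biological replicates was hybridized to 2-colour Agilent whole-genome arrays. Each sample, labelled with Cy5, was set against 1 universal mouse reference RNA made from a panel of mouse cell lines and labelled with Cy3, and no dye swap was made. Wild-type C57BL/6J mice were sampled as whole esophagus at embryonic day 11.5 (E11.5), at E15.5, at birth (P0) and at postnatal day 7 (P7), and as esophageal epithelium alone in adults of 8 weeks. Mice lacking Nrf2 (Nrf2-/-), Keap1 (Keap1-/-) or both genes (Nrf2-/-Keap1-/-), all germline nulls on the C57BL/6J background, were sampled as whole esophagus at P7. Nrf2-/- mice were also sampled as adult epithelium at 8 weeks. Because germline nulls lack the gene in every cell of the animal, a difference in the whole organ could arise in any of its layers. Age and the part of the organ sampled cannot be told apart in the step from P7 to adult. In these bulk samples, fewer cells of a type and less RNA per cell cannot be told apart either.

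Notch receptors are single-pass membrane proteins that are cut after binding a Jagged or Delta-like ligand on a neighbouring cell. The released intracellular domain moves to the nucleus, where it joins the DNA-binding protein Rbpj and switches on target genes, among them the Hes and Hey families of transcriptional repressors. In stratified epithelia such as the esophagus the pathway is known for guiding cells from the basal layer into differentiation, and in blood vessels for arterial and mural cell fate. Nrf2 is a transcription factor for detoxification and antioxidant genes, and Keap1 is the adaptor that marks Nrf2 for degradation, so Nrf2 accumulates when Keap1 is lost.

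Every level below is a log2 ratio of sample (Cy5) over reference (Cy3), averaged over the probes of the gene, and every change is a difference of such log2 ratios. Since the reference holds a different amount of each transcript, levels of 2 genes were not compared. A gene was called changed at an adjusted p of 0.05 or lower by limma, adjusted with the Benjamini-Hochberg method over all genes tested. Between 58.3% and 68.7% of the probes with a gene name were well above background in Cy5 on an array. Nfe2l2, which encodes Nrf2, read -3.92 to -3.82 in Nrf2-/- at P7, -4.14 to -4.08 in Nrf2-/-Keap1-/- and -3.64 to -2.85 in Nrf2-/- adults, against -0.55 to 0.00 in wild-type at P7 and 0.81 to 1.27 in wild-type adults. Keap1 overlapped between Keap1-/- (-0.26 to 0.64) and wild-type (0.42 to 1.00) at P7. It read -0.50 to -0.19 in Nrf2-/-Keap1-/-, below wild-type, but also -0.62 to 0.74 in Nrf2-/- adults. Whether the Keap1 probe lies in the deleted part was not settled by the sources. Nqo1, a detoxifying enzyme gene that Nrf2 activates, read 3.95 to 4.18 in Keap1-/- and -1.96 to 0.45 in wild-type at P7. The 3 Keap1-/- arrays alone filled 1 slide and 1 scan session, and among the P7 arrays they alone were of another software version. Their median Cy3 intensity was 147.2, 114.8 and 144.9, against 222.6, 224.8 and 230.6 in wild-type at P7. Genotype, slide, scan and software cannot be told apart for them. Among the embryonic arrays, E11.5 replicate 3 resembled E15.5 replicates 2 and 3 (r = 0.975 and 0.970 over all genes) more than its own group (0.827 and 0.770), and E15.5 replicate 1 resembled E11.5 replicates 1 and 2 (0.952 and 0.918) more than its own (0.802 and 0.811). Changes of the members, counts of the lists and levels that involve E11.5 or E15.5 are given with these 2 arrays, under the names their labels carry, and again without them. Since the 2 arrays were picked by these same expression values, leaving them out favours a wider gap between E11.5 and E15.5. It also leaves 2 arrays at each of these ages, so calls gained that way are not independent support.

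**Figure D1:**
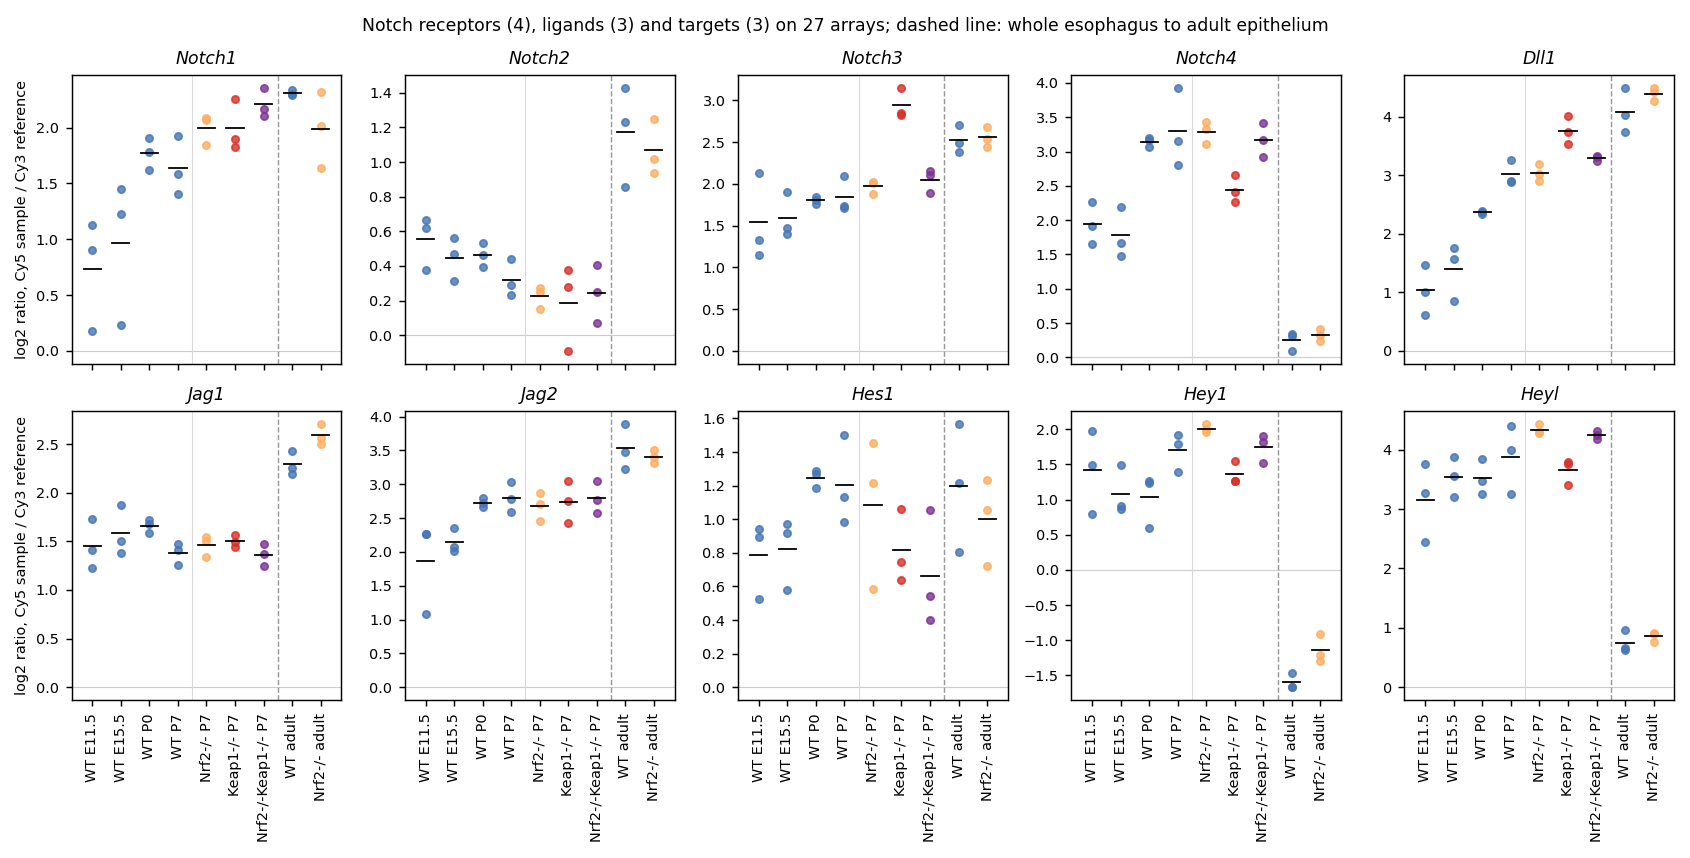
Level of each of the 10 Notch genes on every array. Each panel is 1 gene, the vertical axis is the log2 ratio of sample over reference, the horizontal axis lists the 9 groups, points are arrays and short bars are group means. Hey1, Heyl and Notch4 drop in both adult groups, Dll1 climbs from E11.5 to adult, and Notch3 is highest in Keap1-/-.

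The 10 genes were all detected, and 12 of their 15 probes were well above background in Cy5 on all 27 arrays. No member spot was saturated. Heyl had 2 probes, of which 1 was not well above background on any of the 6 adult arrays. Of the 3 Notch2 probes, 1 was not well above background on 4 arrays, and of the 2 Jag1 probes, 1 was above on only 15 of the 27. Over all arrays the level of Dll1 spanned from 0.62 to 4.49, that of Hey1 from -1.67 to 2.07, and that of Heyl from 0.62 to 4.43. Hes1 had a narrower span, from 0.40 to 1.57, and its groups overlapped for the most part.

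The wild-type time course asks how the pathway genes changed while the lining of the esophagus became a stratified epithelium. Dll1, a transmembrane ligand, and Notch4, a receptor best known from the endothelium, were higher at P0 than at E15.5 and higher at P7 than at E11.5. Jag2, a ligand, also rose from E11.5 to P7. No member was called between E15.5 and E11.5 or between P7 and P0 by limma.

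For Dll1 the level was 1.01, 0.62 and 1.47 at E11.5, 0.86, 1.76 and 1.57 at E15.5, 2.39, 2.34 and 2.36 at P0, and 2.91, 2.88 and 3.25 at P7. The 3 arrays of P0 lay above the 6 embryonic arrays, and the 3 of P7 above those of P0. From E11.5 to P7 Dll1 rose by 1.98 (SE 0.25, adjusted p = 0.000425 by limma), a 3.94-fold change, and between E15.5 and P0 it gained 0.97 (SE 0.25, adjusted p = 0.0225), a 1.96-fold change. Without the 2 embryonic arrays that went against their labels, these changes were 2.20 and 0.70. With 2 arrays left at each embryonic age, Dll1 was then also called between E15.5 and E11.5 (0.85 higher at E15.5, adjusted p = 0.0115 by limma) and between P7 and P0 (0.65, adjusted p = 0.0304). The step from E15.5 to P0 lost its call when E15.5 replicate 1 alone was left out (0.70, adjusted p = 0.0663), and also without any 1 of the 3 P0 arrays (0.96 to 0.98, adjusted p of 0.0653 to 0.0667).

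Notch4 read 2.27, 1.65 and 1.91 at E11.5 and 1.67, 1.48 and 2.19 at E15.5. It read 3.19, 3.16 and 3.06 at P0 and 2.80, 3.93 and 3.16 at P7. All 6 postnatal arrays lay above all 6 embryonic arrays. The rise between E15.5 and P0 was 1.36 (SE 0.28, adjusted p = 0.00772 by limma, 2.56-fold) and 1.35 from E11.5 to P7 (SE 0.28, adjusted p = 0.00537, 2.55-fold). Without both doubtful arrays the values were 1.30 and 1.34, both called. At P7 the wild-type arrays spread widely, with replicate 2 the highest of all 27.

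Jag2 stood at 1.08, 2.26 and 2.26 at E11.5, at 2.01, 2.35 and 2.08 at E15.5, at 2.72, 2.80 and 2.66 at P0, and at 2.58, 3.04 and 2.78 at P7. Its E11.5 replicate 1 was the lowest array of all, and the P7 arrays lay above every E11.5 array. Jag2 rose by 0.94 from E11.5 to P7 (SE 0.28, adjusted p = 0.0276 by limma, 1.91-fold), and by 1.13 without both doubtful arrays. The call was lost without P7 replicate 2 (0.82, adjusted p = 0.0891) and without P7 replicate 3 (0.94, adjusted p = 0.0648).

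The counts were not large beside the rest of the array. From E15.5 to P0, 2 of the 10 members were called, both higher, where 19.7% of all genes tested were called, 11.3% higher and 8.43% lower. From E11.5 to P7, 3 of 10 were called, all higher, against 30.2% of all genes, 16.8% higher and 13.3% lower. Without both doubtful arrays 6 of 10 were called in that span, where 40.5% of all genes were, and 2 of 10 from E15.5 to P0, where 19.5% were. Groups did not overlap for 5 members in each of these steps, against 43.9% and 42.8% of all genes. From P0 to P7 no member was called, with 1 at an unadjusted p under 0.05, where 2.44% of all genes were called and 14.2% passed unadjusted. Groups there were apart for Dll1, Hey1 and Jag1, 3 of 10, against 28.1% of all genes. Between E11.5 and E15.5 neither a member nor any of 19696 genes was called, no member passed at an unadjusted p under 0.05 where 1.65% of genes did, and no member had separate groups where 3.84% of genes had. That step gave 2648 called genes of 19361 once both doubtful arrays were left out.

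Notch1, the main receptor of stratified epithelium, read 0.18, 0.91 and 1.13 at E11.5 and 1.40, 1.93 and 1.59 at P7. All P7 arrays lay above those of E11.5, but the difference of 0.90 (SE 0.32) missed the threshold with an adjusted p of 0.055 by limma, and it was called without both doubtful arrays (1.10, adjusted p = 0.00424) and with the replicate number as a block (0.90, adjusted p = 0.0116). Hes1 stood likewise at 0.94, 0.52 and 0.90 at E11.5 and at 0.98, 1.50 and 1.13 at P7, a difference of 0.42 with an adjusted p of 0.0831. Heyl, a Hey family repressor, differed by 0.72 with overlapping groups (adjusted p = 0.154) and was called at 1.02 without both arrays. Notch2 then also passed, 0.32 lower at P7. Notch3, Jag1 and Hey1 were not called in any step of the time course, with or without the 2 arrays, although Notch3 passed from E11.5 to P7 (0.60) when E11.5 replicate 1 was left out. A test over the 4 wild-type ages together called Dll1 (adjusted p = 0.000831) and Notch4 (adjusted p = 0.00328), where 30.1% of all genes were called. Without both doubtful arrays that test called Dll1, Notch4, Notch1, Jag2 and Hey1 (the last with an adjusted p of 0.0283), where 45.7% of all genes were called.

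Markers of other cell types also moved over these ages. Between E11.5 and P7, 3 of 8 endothelial markers were higher, with a mean log2 ratio of 1.51 to 2.21 at E11.5 and 2.29 to 2.54 at P7. From E15.5 to P0 none of the 8 was called, with a median change of 0.24. The mean log2 ratio of the list was 1.86 to 2.34 at E15.5 and 2.34 to 2.48 at P0. Of the suprabasal epithelium markers 5 of 7 were higher at P7 (3.50 to 4.60, against 0.65 to 2.22 at E11.5), of the basal epithelium markers 3 of 6 (2.97 to 3.30 against 1.10 to 2.61) and of the skeletal muscle markers 6 of 6 (4.29 to 4.82 against 0.37 to 1.75). The 6 proliferation markers were all lower (-1.14 to -0.85 against -0.22 to 0.09). Without both doubtful arrays, 6 of 8 endothelial, 7 of 7 suprabasal, 6 of 6 basal and 5 of 6 skeletal muscle markers were called higher from E11.5 to P7, and the 6 proliferation markers lower. From E15.5 to P0 none of the 8 endothelial markers was called then, with a median change of 0.14 and list means of 2.24 and 2.34 on the E15.5 arrays kept. The part of these cell types in the Notch gene changes was not tested.

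At P7 the 4 genotypes ask what loss of Nrf2, of Keap1 or of both did to the pathway. In the Keap1-/- arrays 3 members were called relative to wild-type, a comparison in which genotype, slide, scan and software cannot be told apart. Notch3, a receptor known from mural cells of vessels and from suprabasal epithelium, rose 2.14-fold, Dll1 rose 1.67-fold, and Notch4 was 1.81-fold lower. No member was called in Nrf2-/- or in Nrf2-/-Keap1-/- at P7. All of these comparisons share the 3 wild-type P7 arrays, which also serve the time course and the step to adult.

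Notch3 read 2.82, 2.84 and 3.15 in Keap1-/-, against 1.71, 2.09 and 1.73 in wild-type, 2.02, 1.87 and 2.01 in Nrf2-/-, and 1.89, 2.15 and 2.11 in Nrf2-/-Keap1-/-. The 3 Keap1-/- arrays were the highest of all 27 arrays of the series. The change against wild-type was 1.10 (SE 0.13, adjusted p = 0.000171 by limma), and against Nrf2-/-Keap1-/- it was 0.89 (SE 0.13, adjusted p = 0.000632, 1.85-fold).

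Dll1 stood at 4.01, 3.73 and 3.53 in Keap1-/- and at 2.91, 2.88 and 3.25 in wild-type. It stood at 2.91, 3.02 and 3.20 in Nrf2-/- and at 3.32, 3.24 and 3.32 in Nrf2-/-Keap1-/-. The Keap1-/- arrays lay above those of the other 3 genotypes. Dll1 was 0.74 higher than in wild-type (SE 0.14, adjusted p = 0.00258 by limma) and 0.46 higher than in Nrf2-/-Keap1-/- (SE 0.14, adjusted p = 0.0278, 1.38-fold). The latter difference lost its call without Keap1-/- replicate 1 (0.33, adjusted p = 0.0845) or 2 (0.47, adjusted p = 0.0644), or without any 1 of the Nrf2-/-Keap1-/- arrays (0.44 to 0.48, adjusted p of 0.0598 to 0.0735).

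Notch4 read 2.27, 2.41 and 2.65 in Keap1-/-, below the 2.80, 3.93 and 3.16 of wild-type, the 3.43, 3.33 and 3.10 of Nrf2-/- and the 3.17, 2.91 and 3.41 of Nrf2-/-Keap1-/-. The Keap1-/- range lay just under the wild-type range. Notch4 fell by 0.85 against wild-type (SE 0.25, adjusted p = 0.0221 by limma) and was 0.72 lower than in Nrf2-/-Keap1-/- (SE 0.25, adjusted p = 0.0446, 1.65-fold). The first call was lost without Keap1-/- replicate 1 (-0.77, adjusted p = 0.0612) or 2 (-0.84, adjusted p = 0.0635) and under median centring (-0.50, adjusted p = 0.0919). The second was lost without WT replicate 3, Nrf2-/- replicate 1 or 2, any Keap1-/- array, or Nrf2-/-Keap1-/- replicate 1 or 3, with values of -0.83 to -0.60 and adjusted p of 0.054 to 0.138, and with the replicate number as a block (-0.72, adjusted p = 0.0612). In all it was called in 10 of 26 alternatives.

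**Figure D2:**
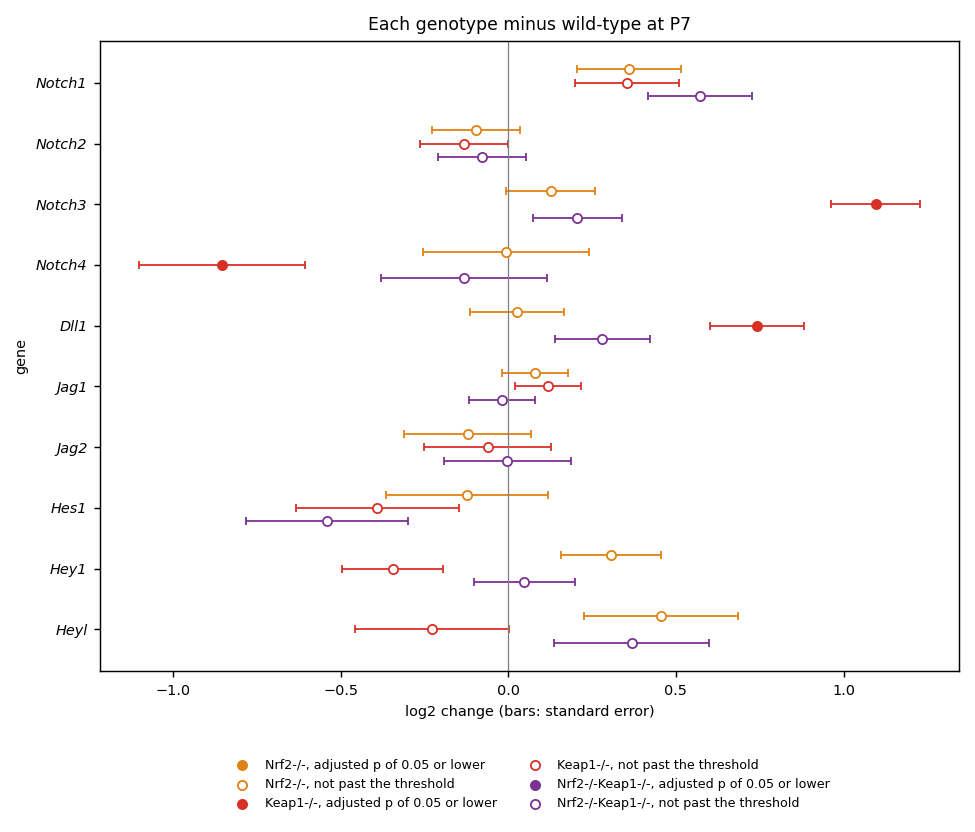
Difference of each member from wild-type at P7, in log2 units, for Nrf2-/-, Keap1-/- and Nrf2-/-Keap1-/-. Points are differences of 3 against 3 arrays, error bars are standard errors from the fit, and filled points passed an adjusted p of 0.05. Notch3 and Dll1 above 0 and Notch4 below 0 in Keap1-/- are the 3 filled points.

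In all, 3 of the 10 members were called in Keap1-/- against wild-type, 2 higher and 1 lower, where 33.3% of all genes were called, 15.4% higher and 17.9% lower. The groups of 3 members were apart, against 45.1% of all genes. Against Nrf2-/-Keap1-/-, which shares the Keap1-/- arrays, 3 of 10 were called, 2 higher and 1 lower, where 33.3% of all genes were, 15.1% higher and 18.2% lower, and 4 were apart, against 48.5% of genes. The fourth was Heyl, 0.60 lower in Keap1-/- with an adjusted p of 0.0689. In Nrf2-/- 0.0157% of all genes, 3 of 19053, were called against wild-type, and 10.7% had an unadjusted p under 0.05, as did 1 member, Notch1 (0.36 higher, adjusted p = 0.46). Hey1 was the 1 member whose groups were apart there (2.00, 2.07 and 1.96 against 1.79, 1.40 and 1.92 in wild-type, adjusted p = 0.494), against 16.4% of all genes. In Nrf2-/-Keap1-/- 0.43% of genes were called and 17.4% passed unadjusted, as did Notch1 and Hes1, which are 2 of the 10. Notch1 read 2.11, 2.17 and 2.36 there, above all wild-type arrays, but the difference of 0.57 had an adjusted p of 0.113, and it was the 1 member with separate groups where 21.6% of genes had them. A test over the 4 genotypes together called Notch3, Dll1, Hey1 and Notch4 (adjusted p of 0.000473, 0.00668, 0.034 and 0.0477), where 33.8% of all genes were called. In that test Notch3 and Dll1 kept their calls under every alternative run, Hey1 in 15 of 22 and Notch4 in 9 of 22.

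The probes of Notch2, a receptor of wide expression, disagreed here. The brightest of the 3, A_52_P289213, read -0.27, 0.03 and -0.11 in Keap1-/-, 0.68, 0.84 and 0.84 in wild-type and 0.58, 0.71 and 0.90 in Nrf2-/-Keap1-/-. On it alone Notch2 was 0.90 lower than in wild-type (adjusted p = 0.000529 by limma) and 0.84 lower than in Nrf2-/-Keap1-/- (adjusted p = 0.000833). A second probe, A_52_P448796, read -0.15, 0.97 and 0.74 in Keap1-/- and -0.24, 0.24 and 0.01 in wild-type, and the mean over the 3 probes was not called.

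The wild-type array with the highest Notch4 value, replicate 2, also read high for Notch1 and low for Hey1 and Heyl among its group. Without it Notch1 was called 0.50 higher in Keap1-/- (adjusted p = 0.0278), Hey1 0.50 lower (adjusted p = 0.0197) and Heyl 0.54 lower (adjusted p = 0.0208), beside Notch3, Dll1 and Notch4. With it, their differences were 0.35, -0.34 and -0.23 and none was called. That array is singled out here by the values of these same members, so calls gained by leaving it out are not independent support. Its median Cy5 intensity was also the lowest of the wild-type P7 arrays (88.5 against 102.6 and 113.3).

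Several marker lists moved in the Keap1-/- arrays too. The mean log2 ratio of the fibroblast list was 0.46 to 0.92 in Keap1-/- and 1.75 to 2.07 in wild-type, with 5 of 6 markers called lower. That of the smooth muscle and pericyte list was 2.43 to 2.84 against 3.15 to 3.40, with 5 of 8 lower and 1 higher. Endothelial markers stood at 2.54 to 2.71 against 2.29 to 2.54, with 2 of 8 higher and none called lower. All 5 markers of simple epithelium were lower, at -1.35 to -1.10 against 1.48 to 2.11. Of the proliferation markers 5 of 6 were lower (-2.30 to -1.26 against -1.14 to -0.85) and of the leukocyte markers 3 of 5, while 2 of 3 airway markers were higher. Of the basal epithelium list 1 of 6 was higher, and of the suprabasal list 1 of 7 was higher and 1 lower. The part of these cell types in the Notch gene values was not tested.

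The 3 members called under Keap1 loss all lie on chromosome 17, where Dll1 and Notch3 are read from the minus strand and Notch4 from the plus strand. The 250 bases before the transcription start are shown for these 3, as the members that moved with Keap1, from RefSeq on build GRCm38.p6 and written 5′ to 3′ along the gene's strand. Windows were found for 7 of the 10 members, 8 windows in all because Dll1 has 2 starts, of which the one shown holds a match. Hes1, Hey1 and Heyl had no entry. Capitals mark matches on either strand to any of 4 motifs, overlaps allowed: GTGGGAA for Rbpj, TGACNNNGC for the core of the antioxidant response element that Nrf2 binds, TGANTCA for AP-1 and GGGCGG for the GC box.
Dll1, chr17:15376933-15377182: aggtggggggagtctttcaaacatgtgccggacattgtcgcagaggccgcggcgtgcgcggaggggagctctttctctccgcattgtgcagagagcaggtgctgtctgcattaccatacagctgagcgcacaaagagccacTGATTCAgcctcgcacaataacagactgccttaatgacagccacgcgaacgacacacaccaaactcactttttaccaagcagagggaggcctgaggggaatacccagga
Notch3, chr17:32166891-32167140: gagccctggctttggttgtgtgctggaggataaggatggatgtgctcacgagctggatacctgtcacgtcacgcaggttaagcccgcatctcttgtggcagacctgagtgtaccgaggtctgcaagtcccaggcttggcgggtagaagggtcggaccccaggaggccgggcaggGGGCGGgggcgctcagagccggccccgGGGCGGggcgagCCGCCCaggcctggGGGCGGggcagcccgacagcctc
Notch4, chr17:34564045-34564294: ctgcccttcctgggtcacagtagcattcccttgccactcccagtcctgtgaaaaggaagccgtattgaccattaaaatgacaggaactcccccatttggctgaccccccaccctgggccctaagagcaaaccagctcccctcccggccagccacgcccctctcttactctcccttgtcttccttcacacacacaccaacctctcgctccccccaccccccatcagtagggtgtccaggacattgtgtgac
The Dll1 window shown holds 1 AP-1 match, while the window of its other start holds none of the 4 motifs. The Notch3 window holds 4 GC boxes, and the Notch4 window holds none of the 4 motifs. Neither GTGGGAA nor TGACNNNGC occurred in any of the 8 member windows, against 5.42% and 10.2% of the 32851 windows of the same length in the table. TGANTCA was in 1 of 8, against 6.75% of all windows, and GGGCGG in 4 of 8 (Notch1, Notch2, Notch3 and Jag2), against 32.7%. These are matches of letters in a short window and say nothing on binding.

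The step from P7 to adult held the greatest changes of the members. In wild-type, Hey1 was 9.84-fold and Notch4 8.25-fold lower in adult epithelium than in the P7 esophagus, and Heyl fell by 4.09 on the log2 scale on the probe that was well above background in both. All 3 ligands and the other 3 receptors were higher, by 1.59-fold to 2.10-fold, but none of these rises was called when the local background of every spot was subtracted. For Dll1, Jag2 and Notch1 the direction then turned (-0.45, -0.25 and -0.22). Jag1, Notch2 and Notch3 were then at 0.41, 0.33 and 0.36 (adjusted p of 0.193, 0.393 and 0.181 by limma). The rise of Notch2 rests on 1 of its 3 probes. Hes1, a target gene with wide use across tissues, did not pass (difference of -0.01, adjusted p = 0.974 by limma).

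Hey1 read 1.79, 1.40 and 1.92 at P7 and -1.66, -1.46 and -1.67 in adults, a change of -3.30 (SE 0.16, adjusted p = 1.71e-05 by limma). Heyl, as the mean of its 2 probes, read 3.99, 3.25 and 4.39 at P7 and 0.65, 0.62 and 0.96 in adults, a change of -3.13 (SE 0.28, adjusted p = 0.000183). Notch4 went from 2.80, 3.93 and 3.16 to 0.34, 0.32 and 0.10, a change of -3.04 (SE 0.27, adjusted p = 0.000186). The P7 and adult arrays were more than 2 log2 units apart for each of these 3 genes. The Heyl mean includes a probe that was not well above background in any adult, which read a fall of 2.18, so no fold is given for the mean. The other Heyl probe read 5.52, 5.03 and 5.90 at P7 and 1.35, 1.07 and 1.76 in adults. The declines of all 3 genes were called under each alternative run, with Hey1 between -3.65 and -2.77, Heyl between -4.09 and -2.25 and Notch4 between -3.38 and -2.64.

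Among the ligands, Dll1 stood at 2.91, 2.88 and 3.25 at P7 and at 3.74, 4.02 and 4.49 in adults, 1.07 higher (SE 0.21, adjusted p = 0.00564 by limma, 2.10-fold). Jag1 went from 1.42, 1.25 and 1.47 to 2.25, 2.19 and 2.43, a rise of 0.91 (SE 0.13, adjusted p = 0.00121, 1.88-fold). Jag2 went from 2.58, 3.04 and 2.78 to 3.23, 3.48 and 3.89, a rise of 0.73 (SE 0.20, adjusted p = 0.022, 1.66-fold). No adult array of any ligand lay within the P7 range, although for Jag2 the ranges came close (lowest adult array 3.23, highest P7 array 3.04). The Jag2 call was lost without P7 replicate 1 or 3 or adult replicate 2 or 3 (0.55 to 0.76, adjusted p of 0.0518 to 0.0726). Of the 2 Jag1 probes, the brighter rose by 1.30 and the dim one by 0.52.

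Among the receptors, Notch1 went from 1.40, 1.93 and 1.59 to 2.30, 2.30 and 2.33, a rise of 0.67 (SE 0.15, adjusted p = 0.0111 by limma, 1.59-fold). Notch3 went from 1.71, 2.09 and 1.73 to 2.48, 2.38 and 2.70, a rise of 0.68 (SE 0.15, adjusted p = 0.0106, 1.60-fold). Notch2 went from 0.23, 0.44 and 0.29 to 1.43, 1.23 and 0.85, a rise of 0.85 (SE 0.17, adjusted p = 0.0058, 1.80-fold). Adult and P7 arrays were apart for all 3. Under scale normalization between arrays Notch1 (0.41, adjusted p = 0.105), Notch3 (0.39, adjusted p = 0.0855) and the ligand Jag2 (0.31, adjusted p = 0.266) lost their calls. The Notch2 probes disagreed, since 1 of them rose by 2.40 and the other 2 by 0.09 and 0.06, so the rise of the gene mean rests on 1 probe. That probe read a change of 1.91 in Nrf2-/-, against 0.21 and 0.41 for the other 2.

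**Figure D3:**
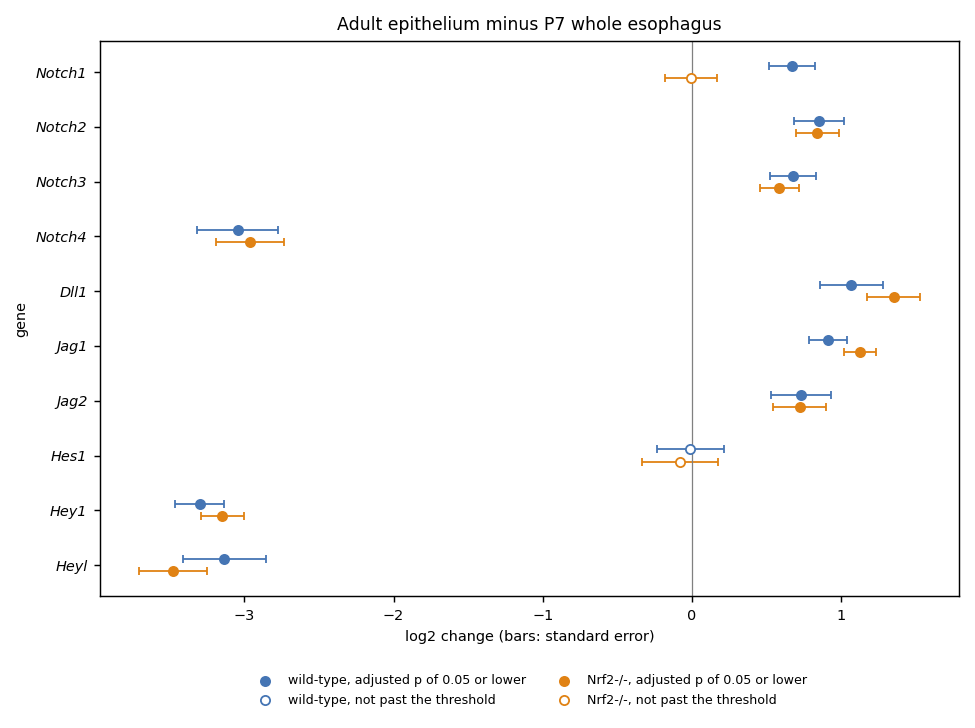
Change of each member from P7 esophagus to adult epithelium, in log2 units, in wild-type and in Nrf2-/- mice. Points are differences of 3 against 3 arrays, error bars are standard errors from the fit, and filled points passed an adjusted p of 0.05. Notch4, Hey1 and Heyl lie near -3 in both genotypes, the ligands lie above 0 in both, and Notch1 is above 0 in wild-type and at -0.01 in Nrf2-/-.

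Nrf2-/- mice went through the same step in arrays that share no sample with wild-type. Their fit also held the wild-type P7 and adult arrays, which enter its estimate of spread, while the wild-type step was fitted alone. Adjusted p and counts called are therefore not comparable between the 2 steps. Hey1 fell by 3.15, Heyl by 3.48 and Notch4 by 2.97 (adjusted p of 6.06e-08, 5.49e-07 and 1.66e-06 by limma), or 8.86-fold for Hey1 and 7.81-fold for Notch4. On the Heyl probe well above background the change was -4.37, and on the other -2.59. Hey1 read 2.00, 2.07 and 1.96 at P7 and -1.21, -1.29 and -0.91 in adults, Heyl 4.30, 4.43 and 4.28 against 0.77, 0.91 and 0.89, and Notch4 3.43, 3.33 and 3.10 against 0.41, 0.24 and 0.33. Dll1 was 1.35 higher in adults (adjusted p = 8.24e-05), Jag1 1.13 higher (adjusted p = 8.11e-06) and Notch2 0.84 higher (adjusted p = 0.00052). On its brightest probe alone, Notch2 was 0.21 higher and not called (adjusted p = 0.282). Jag2 rose by 0.72 (adjusted p = 0.00503) and Notch3 by 0.59 (adjusted p = 0.00275), but under scale normalization between arrays these were -0.10 and -0.03, and Dll1 was 0.31 higher and not called (adjusted p = 0.154). Notch1 read 2.07, 1.84 and 2.09 at P7 and 2.32, 2.01 and 1.64 in adults, which overlap (difference of -0.01, adjusted p = 0.976), and Hes1 overlapped as well (-0.08, adjusted p = 0.806).

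In wild-type 9 of the 10 members were called, 6 higher and 3 lower, where 43% of all genes tested were called, 20% higher and 23% lower. Groups were apart for the same 9 members, against 56% of all genes. In Nrf2-/- 8 of 10 were called, 5 higher and 3 lower, where 55.2% of all genes were called, 27.1% higher and 28% lower, and 8 were apart, against 65.4% of genes. The adult arrays were scanned in several sessions. All 3 Nrf2-/- P7 arrays were of 1 session and software version and all 3 Nrf2-/- adult arrays of other sessions and another version, so within Nrf2-/- age and scan cannot be told apart. Among the wild-type arrays of 1 session, which leaves out adult replicate 3, Hey1, Heyl and Notch4 fell by 3.26, 3.24 and 2.97, and Dll1, Jag1, Notch1, Notch2 and Notch3 were still called higher, by 0.59 to 1.01. Jag2 was not called there (0.55, adjusted p = 0.0518). With the scan session as a block, which is estimated there through the wild-type arrays, Dll1 in Nrf2-/- was 0.73 higher (adjusted p = 0.0654), and Jag2 and Notch3 were at 0.20 and 0.33, none of them called.

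The adult arrays were labelled epithelium, and markers of the layers below it were lower in them. In wild-type the mean log2 ratio of the fibroblast list was 1.75 to 2.07 at P7 and -0.35 to 0.28 in adults, with 6 of 6 markers called lower, among them Col1a1 (-3.20) and Col1a2 (-1.84). That of skeletal muscle was 4.29 to 4.82 against 0.06 to 1.00, with 6 of 6 lower. That of smooth muscle and pericytes was 3.15 to 3.40 against 2.27 to 2.46, with 5 of 8 lower. Endothelial markers were at 2.29 to 2.54 against 1.51 to 2.09, with 5 of 8 lower and 1 higher, among them Pecam1 (-0.48, adjusted p = 0.0378 by limma) and Cdh5 (-1.80, adjusted p = 0.00301). Neuron and glia markers were lower in 5 of 5 and red cell markers in 3 of 3, and Ret, of the neuron and glia list, was not well above background on any adult array. The simple epithelium list went from 1.48 to 2.11 at P7 to -1.04 to -0.76, with 3 of 5 lower, and 3 of 6 proliferation markers and 1 of 5 leukocyte markers were lower. Of the basal epithelium list 1 of 6 was higher, of the suprabasal list 3 of 7 and of the airway list 2 of 2. The part of any of these lists in the fall of Hey1, Heyl and Notch4 was not tested.

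**Figure D4:**
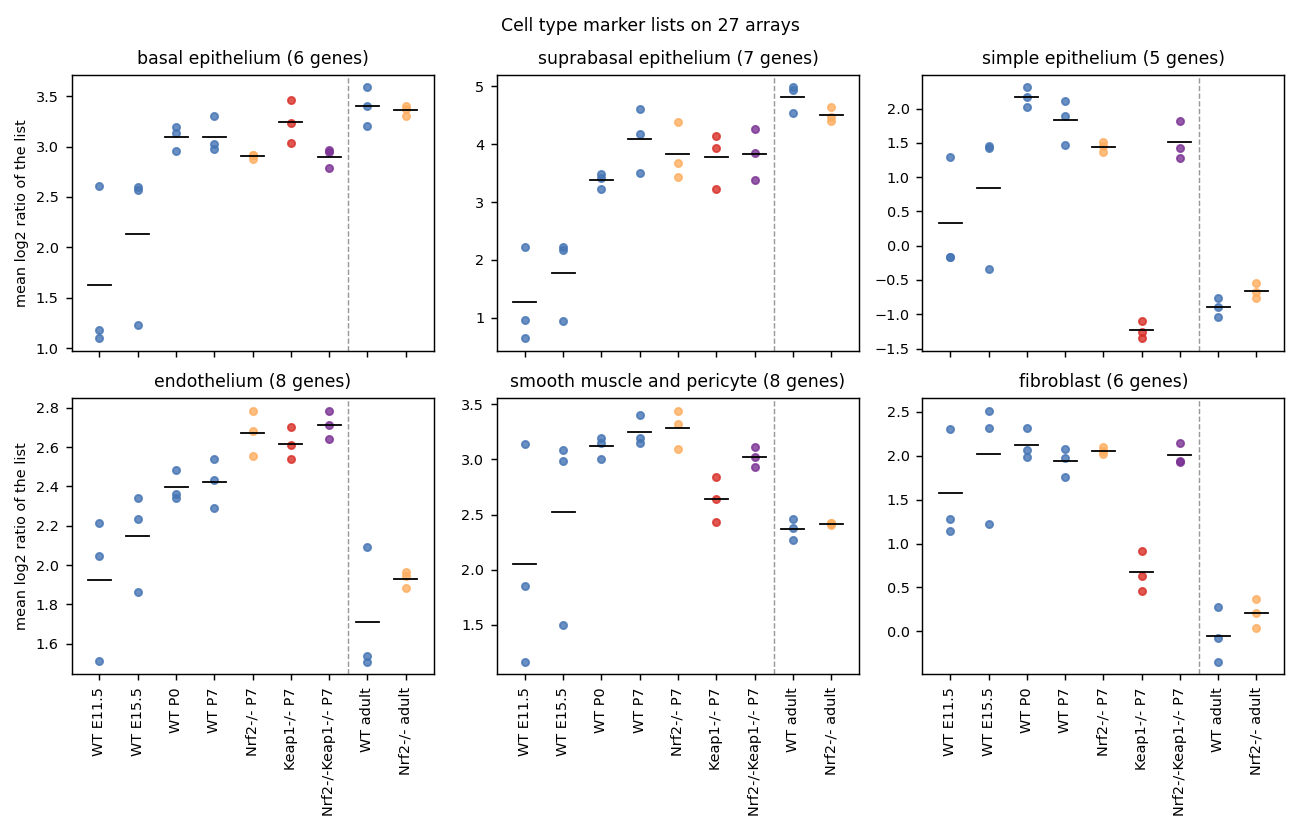
Mean log2 ratio of 6 cell type marker lists on every array, by group. The vertical axis is the mean log2 ratio of sample over reference over the genes of the list, points are arrays and short bars are group means. The fibroblast and endothelium lists drop in the adult epithelium, and the simple epithelium and fibroblast lists are low in Keap1-/- at P7.

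Loss of Nrf2 in adult epithelium called no member by limma, where 0.46% of all genes, 83 of 18029, were called and 16.9% had an unadjusted p under 0.05. Hey1 and Jag1, 2 of the 10 members, had such a p, and the same 2 had separate groups, against 22.7% of all genes. Hey1 stood at -1.21, -1.29 and -0.91 in Nrf2-/- and at -1.66, -1.46 and -1.67 in wild-type, a difference of 0.46 (SE 0.14, adjusted p = 0.186) that was -0.07 with the local background of every spot. Jag1 stood at 2.70, 2.50 and 2.56 against 2.25, 2.19 and 2.43, a difference of 0.30 (adjusted p = 0.279), and -0.13 under scale normalization. The test of whether the effect of Nrf2 loss differed between adult and P7 called none of the 10 members, where 0.098% of all genes were called and 11.3% passed unadjusted. Notch1 alone of the 10 had an unadjusted p under 0.05, with a difference of -0.68 between the effects (SE 0.25, adjusted p = 0.342). The wild-type and Nrf2-/- adult arrays were scanned partly in different sessions.

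Ordered over the 9 groups, Notch3 was highest in Keap1-/- at P7 (2.94 ± 0.18, SD, n = 3), followed by both adult groups, which overlapped each other, and then by the remaining groups from 2.05 ± 0.14 in Nrf2-/-Keap1-/- down to 1.54 ± 0.52 at E11.5, whose neighbours overlapped. Dll1 was highest in Nrf2-/- adults (4.39 ± 0.11), wild-type adults (4.08 ± 0.38) and Keap1-/- (3.76 ± 0.24), neighbours that overlapped. Below these came Nrf2-/-Keap1-/- (3.29 ± 0.04), then Nrf2-/- (3.04 ± 0.15) and wild-type at P7 (3.01 ± 0.21), which overlapped, then P0 (2.37 ± 0.02), and last E15.5 and E11.5, which overlapped. Notch4 overlapped between neighbours in wild-type, Nrf2-/- and Nrf2-/-Keap1-/- at P7 and wild-type at P0 (3.30 ± 0.58 to 3.14 ± 0.07). It was lower in Keap1-/- (2.44 ± 0.20), which overlapped E11.5, and lowest in the adult groups (0.32 ± 0.09 and 0.25 ± 0.13). Heyl overlapped from one group to the next from 4.33 ± 0.08 to 3.16 ± 0.66 over all ages up to P7, with both adult groups set apart at 0.86 ± 0.08 and 0.75 ± 0.19. These orders hold both doubtful embryonic arrays. Without them Dll1 had means of 0.81 at E11.5 and 1.67 at E15.5, which no longer overlapped, Heyl of 2.86 and 3.72, which no longer overlapped either, and Notch3 of 1.64 and 1.43, so that E15.5 came last.

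The wider pathway was read from a list of 47 further genes on the array, covering other ligands, the enzymes that cut or glycosylate the receptor, cofactors and other targets. Under Keap1 loss 9 of the 44 tested rose and 3 fell, where 33.3% of all genes were called. The 3 with the greatest rise were Aph1a, a subunit of the gamma-secretase that releases the intracellular domain (1.26, adjusted p = 0.000113 by limma), Hes2, a Hes family gene (0.90), and Dtx4, of the Deltex family (0.86). The greatest falls were those of Dner, a Delta-like membrane protein (-1.26), Rbpj, the DNA-binding partner of the intracellular domain (-0.62), and Dtx1, another Deltex gene (-0.45). The median change of the list was 0.10, against -0.02 over all genes tested. Against Nrf2-/-Keap1-/- 11 of 44 were higher and 1 was lower, where again 33.3% of all genes were called.

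From P7 to adult in wild-type, 8 of the 43 tested rose and 14 fell, where 43% of all genes were called. Rbpjl, a relative of Rbpj, rose by 3.10 (adjusted p = 0.000104 by limma) and Nrarp, a target that damps Notch signalling, by 1.89 (adjusted p = 0.000603). Hes7 was called higher as well, but it was not well above background on any wild-type P7 array, so no size is given. Dlk1, a Delta-like protein of stromal and progenitor cells, fell by 5.30, Dner by 2.31 and Dtx1 by 1.92. The list median was -0.12, against 0.01 over all genes. In Nrf2-/-, where 55.2% of all genes were called, 11 of 45 rose, with Rbpjl at 2.68 and Nrarp at 2.00, and 18 fell, with Dlk1 at -6.01, Neurl1a, a ubiquitin ligase for ligands, at -2.16 and Dtx4 at -1.97.

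In the time course, 4 of 45 genes of the list rose and 5 fell from E15.5 to P0, where 19.7% of all genes were called. Of the gamma-secretase subunits, Psen2 rose by 1.02 and Psenen by 0.70. Dll3, a ligand-like protein of the embryo, fell by 2.69 and Mfng, a Fringe glycosyltransferase, by 0.88. From E11.5 to P7, where 30.2% of all genes were called, 6 of 45 rose and 7 fell, led by Nrarp (1.57), Adam17, a protease that sheds Notch (0.96), and Psen2 (0.93), and by Dll3 (-2.58), Mfng (-0.89) and Rbpj (-0.88). At P0 and P7 Dll3 was well above background on 2 and on 1 of the 3 arrays. From P0 to P7, where 2.44% of all genes were called, 2 genes rose, Adam17 by 0.89 and Pofut1, which adds fucose to the receptor, by 0.58. Without both doubtful arrays 5 of 45 rose and 6 fell from E15.5 to P0, and 11 rose and 8 fell from E11.5 to P7, where 19.5% and 40.5% of all genes were called. Between the embryonic ages no gene of the list was called with both arrays. Without them 6 of 45 were higher at E15.5, led by Dner (2.05), Dtx4 (1.36) and the Hes family gene Hes5 (1.31), and Dtx3 was lower (-0.58), where 13.7% of all genes were called. No gene of the list was called in Nrf2-/- or Nrf2-/-Keap1-/- at P7, in Nrf2-/- adults or for the difference of the Nrf2 effect between ages.

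**Figure D5:**
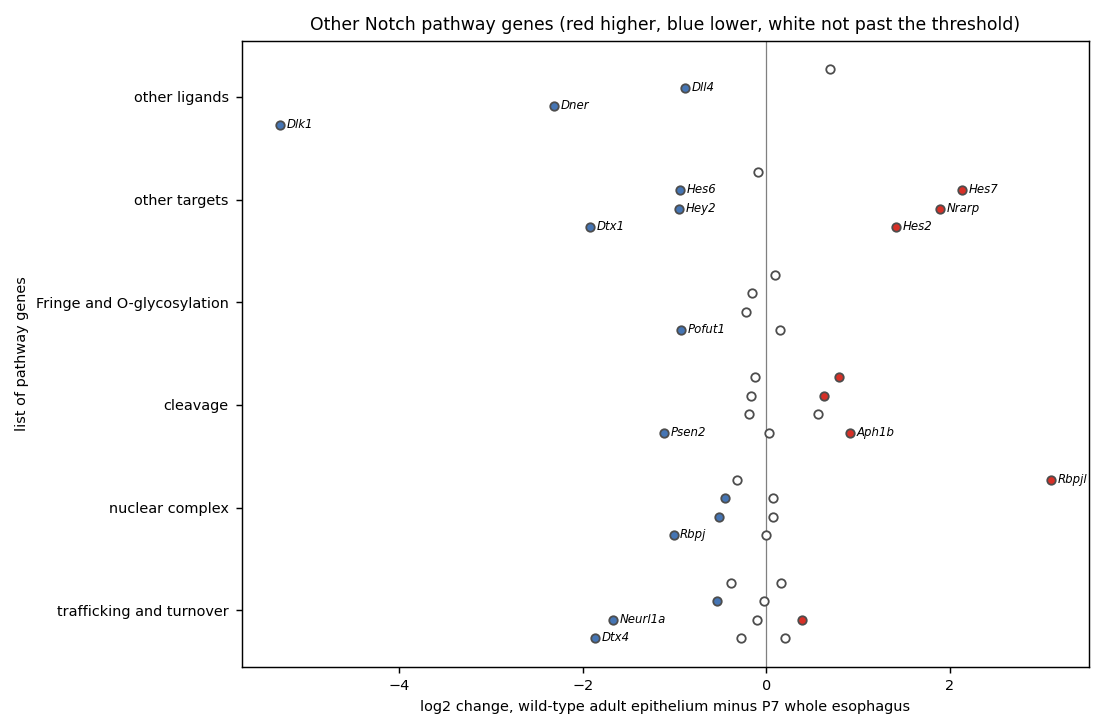
Change from P7 esophagus to adult epithelium of the wider Notch pathway list in wild-type mice, in log2 units, 1 point per gene, grouped by role. Red points were called higher, blue points lower, and white points did not pass. Dlk1 lies lowest at -5.30 and Rbpjl highest at 3.10, and the point of Hes7 has no interpretable size because its P7 arrays were not above background.

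Likeness of pattern was measured as Pearson's r of the log2 ratios over the 27 arrays, among 13932 genes detected on every array, as a description. The arrays fall into groups, so these values mainly carry the difference between the groups. Hey1 was most like St3gal5 (r = 0.962), Irs1 (0.958) and Ddah1 (0.957), and Heyl most like Armcx3 (0.977), Ptpla (0.972) and Lamb1-1 (0.971). Myog (0.946) was among the 3 genes closest to Notch4. Dll1 was most like Crip2 (0.971), Cd44 (0.968) and Fam160a1 (0.968). For Jag1 these were Dnajc14 (0.936), D630004D15Rik (0.932) and Evi5l (0.930), and for Jag2 1810019J16Rik (0.934), Anxa8 (0.914) and Acbd4 (0.909). The closest to Notch1 were Iqgap1 (0.943), Gcnt2 (0.933) and 5430435G22Rik (0.927), to Notch2 Cyfip2 (0.917), Gm71 (0.911) and Ivd (0.911), and to Notch3 Ube3b (0.926), Ipo13 (0.912) and Hdac4 (0.905). Hes1 had no close match, with Plscr3 (0.715), Clstn1 (0.665) and Anks1 (0.659) ahead. Between members, r was 0.928 for Hey1 and Heyl, 0.893 for Heyl and Notch4, 0.875 for Hey1 and Notch4, 0.842 for Dll1 and Jag2 and 0.818 for Dll1 and Notch1. It was negative, at -0.929, for Hey1 and Jag1, -0.927 for Heyl and Notch2, -0.853 for Hey1 and Notch2 and -0.845 for Heyl and Jag1. The rise of the Notch2 mean to adult rests on 1 probe, and the Heyl mean holds a probe not well above background on any adult array. All r values of Notch2 and Heyl carry these limits.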

How the data were processed

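The authors deposited the Agilent Feature Extraction output of each array, with the mean Cy5 and Cy3 intensity of every spot, its local background intensity and the processed intensities, and a table of log10 ratios, which equals the log10 of processed Cy5 over Cy3 intensity averaged over spots. Headers name versions 10.5.1.1 and 10.7.3.1 and an Agilent scanner, the labels version 9.1, and the methods another scanner and program. The mean intensities were background-corrected (normexp, offset 50), loess-normalized within arrays and averaged on the log2 scale over spots, then over probes of a gene name, with limma 3.58.1 in R 4.3.3. Control spots were left out, outlier-flagged spots were kept, and 43 spots whose local background passed 5 times the array median were left out, none of them of a member. Genes were tested if 3 or more arrays of the fit had a probe of theirs well above background in Cy5. Linear models with empirical Bayes moderation were fitted over all genes, separately for the wild-type ages up to P7, the P7 genotypes, wild-type P7 and adult, both adult groups, and the P7 and adult groups of wild-type and Nrf2-/-, with Benjamini-Hochberg adjustment over all genes tested. The scripts were tested on simulated data.

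Groups came from the labels, which call the replicates biological, and 3 arrays per group limit the precision. The methods' significance analysis of microarrays was not run. Named genes were the 10 members, per comparison the 3 called pathway genes with the greatest rise and fall, 2 genes of a marker list, and the 3 genes most alike in pattern to each member, of which some are not reported here. Values of the other marker lists not named in the text were summarised by counts. Members, lists and the background limit were chosen with earlier results of these data known. Alternatives covered background, normalization, filters, probe choice, blocks for slide, scan session and replicate number, and the samples in the fit. Correlations of deviations between same-numbered samples ran from -0.451 to 0.643 over all pairs of groups. They passed a limit of 0.1 in every pair for Keap1-/- with Nrf2-/-Keap1-/- at P7 (0.123 to 0.356), and in wild-type for P0 with P7 (0.121 to 0.368) and E11.5 with P7 (0.124 to 0.187). No other groups compared did so, and E11.5 with E15.5 gave 0.597, -0.451 and 0.643. Titles number the replicates but name no pairs, and the limit was not set against a chance level, so these values do not show that samples were paired. The slides (11) and scan sessions (4) are those of the file headers.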

Additional observations from a re-analysis of the deposited data

How the results depend on the processing

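The falls of Hey1, Heyl and Notch4 from P7 to adult, the rise of Notch3 in Keap1-/- against wild-type and the rises of Dll1 and Notch4 from E11.5 to P7 kept their direction and call under each alternative in which they were tested. The member counts that follow are given without the share of all genes called in the same setting. Counts over all genes moved as well in several steps, so shifts of the member counts are not read as traits of the Notch genes. Leaving out outlier-flagged spots reduced the members called to 1 in the test of 4 genotypes (from 4), in Keap1-/- against Nrf2-/-Keap1-/- (from 3) and wild-type (from 3), in the test of 4 ages (from 2) and from E15.5 to P0 (from 2), and to 5 from P7 to adult in wild-type (from 9) and Nrf2-/- (from 8), partly because fewer members could be tested. Requiring a 2-fold change gave 0 in Keap1-/- against Nrf2-/-Keap1-/-, 1 against wild-type, 1 from E15.5 to P0, and 4 and 5 from P7 to adult in wild-type and Nrf2-/-. Taking the brightest probe, or the slide as a random block, gave 5 in Keap1-/- against Nrf2-/-Keap1-/-, and the scan session as a block gave 5 from P7 to adult in Nrf2-/-. Subtracting the local background of every spot left 3 from P7 to adult in wild-type (Hey1, Heyl and Notch4) and 0 from E15.5 to P0, and median centring left 5 and 1. Without both embryonic arrays that went against their labels, 1 member was called between E11.5 and E15.5 and 1 between P0 and P7 (0 in each otherwise), 6 from E11.5 to P7 (from 3) and 5 in the test of ages. One fit of all 27 arrays called 5 from E11.5 to P7, and a fit of P0 and P7 alone called 1, Dll1. The causes were not tested. Leaving out 1 array at a time gave 2 to 6 in the test of genotypes (lowest without Keap1-/- replicate 1 or 3, Nrf2-/- replicate 1 to 3 or Nrf2-/-Keap1-/- replicate 3, highest without wild-type replicate 2), 1 to 5 in Keap1-/- against Nrf2-/-Keap1-/-, 2 to 6 against wild-type, 2 to 4 in the test of ages and 1 to 3 from E15.5 to P0. The replicate number as a block moved no count by over 1.5 times, with 9 and 8 members called from P7 to adult in wild-type and Nrf2-/-, 3 from E15.5 to P0 and 2 in Keap1-/- against Nrf2-/-Keap1-/-, and its other counts were within that bound. Of single calls this block lost Notch4 in Keap1-/- against Nrf2-/-Keap1-/- (-0.72, adjusted p = 0.0612 by limma) and gained Notch1 from E11.5 to P7 (0.90, adjusted p = 0.0116), groups that passed the limit of 0.1 above. It also gained Notch1 from E15.5 to P0 (0.80, adjusted p = 0.0263), groups that did not pass it. No other call of a member in a step between groups changed with it.

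Directions turned only as follows, counting differences not called in either setting only where they moved by over 2 standard errors. With the local background of every spot, the step from P7 to adult in wild-type gave -0.45 for Dll1, -0.25 for Jag2 and -0.22 for Notch1, adult Nrf2 loss 0.34 for Hes1, -0.067 for Hey1, 0.85 for Jag2, 0.57 for Notch1 and 0.41 for Notch2, and the difference between ages -0.37 for Hey1, 0.97 for Jag2, 0.21 for Notch1 and 0.51 for Notch2. Under median centring adult Nrf2 loss gave 0.32 for Hes1, -0.19 for Heyl, 0.51 for Jag2, 0.26 for Notch1 and 0.25 for Notch2, the step from P7 to adult in Nrf2-/- 0.44 for Hes1 and 0.54 for Notch1, the difference between ages 0.55 for Jag2 and 0.51 for Notch3, and Keap1 loss 0.072 for Hey1. Under scale normalization adult Nrf2 loss gave -0.41 for Dll1, -0.13 for Jag1 and -0.37 for Notch3, the difference between ages -0.30 for Dll1 and -0.15 for Jag1, the step in Nrf2-/- -0.10 for Jag2 and -0.030 for Notch3, and Nrf2-/-Keap1-/- -0.044 for Dll1. The processed signals and the deposited ratios both gave -0.10 for Heyl and 0.45 for Jag1 in Nrf2-/-Keap1-/-, -0.18 for Jag1 between ages and -0.34 for Notch3 in adult Nrf2 loss. The scan session as a block gave -0.11 for Dll1 in adult Nrf2 loss, and the slide as a block -0.18 for Dll1 and -0.51 for Notch1 from E11.5 to E15.5.

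Counts over all genes moved by over 1.5 times in several steps. From P7 to adult in wild-type 7734 genes were called, against 4321 under median centring and 4162 with the local background of every spot, and in Nrf2-/- 10691 against 5784 with the scan session as a block. Adult Nrf2 loss called 83 genes and between 20 (median centring) and 1661 (local background) otherwise, Nrf2-/-Keap1-/- called 82 and between 3 (only its 2 groups) and 495 (slide as a random block), Nrf2-/- at P7 called 3 and up to 9, and the difference between ages 19 and up to 1114 (local background). From P0 to P7 480 genes were called, and 1113 when those groups were fitted alone. From E15.5 to P0 3888 were called, and 1713 with the local background. The share of calls that were higher went from 46.2% to 66% under median centring for Keap1 loss, from 49.2% to 69.4% for the step to adult in Nrf2-/-, from 55.8% to 36.3% from E11.5 to P7, from 57.3% to 40.3% from E15.5 to P0 and from 59.8% to 42.9% from P0 to P7, and with the local background from 46.5% to 27.2% for the step to adult in wild-type. The median change of all genes moved from 0.01 to 0.27 (step to adult in Nrf2-/-), from -0.02 to 0.11 (Keap1 loss) and from 0.02 to 0.40 (adult Nrf2 loss) under median centring, and from 0.01 to 0.13 for the step to adult in wild-type with processed signals. With 3 arrays a group, dim probes such as 1 each of Heyl, Jag1 and Notch2 limit what these members show.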
